A study of Mus musculus with 12 samples.

Results

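The 45 genes described here act in the DNA damage response and in DNA repair, and were found by their symbols among the 21671 genes of the deposited RNA-seq table. They comprise 10 Fanconi anemia genes, 12 genes of homologous recombination with its helicases, 4 of mismatch repair and excision, 7 of base excision and strand break repair, 3 of end joining, 2 of nucleotide excision and 7 of break sensing and checkpoint signaling. RNA-seq was performed on 3T9 MycER;YAP cells, an immortalized line of mouse embryonic fibroblasts. All 4 groups carry both transgenes: MycER, a fusion of Myc to an estrogen receptor domain that is made constitutively and becomes active on addition of 4-hydroxytamoxifen (OHT), and YAP S127A, a YAP mutant that escapes inhibition by the Hippo pathway and is made from a retroviral vector in the presence of doxycycline. The groups were OHT DOX (400 nM OHT with 2 µg/ml doxycycline), OHT (400 nM OHT), DOX (2 µg/ml doxycycline) and CTRL (neither agent), with 3 libraries in each. No group lacked the transgenes, so effects of the agents themselves cannot be told apart from those of MycER or YAP S127A. According to the study, the cells were serum-starved and highly confluent. The line was selected after infection and is not described as a clone, and the sources used here do not say whether the libraries of a group came from separate cultures, so the spread between them may be technical. Total RNA was used without poly(A) selection, and a bulk measurement cannot tell fewer cells making a transcript from less transcript per cell.

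Cells repair DNA by several routes that share parts. The Fanconi pathway unhooks crosslinks between DNA strands and passes the resulting breaks to homologous recombination, which copies the lost sequence from the sister chromatid and is therefore used mainly in S and G2 phase. Mismatch repair corrects replication errors, base excision repair removes single damaged bases, nucleotide excision repair cuts out bulky lesions, and end joining rejoins broken ends without a template. The MRN complex and the kinases ATM and ATR sense breaks and stalled replication forks and signal through CHK2 and CHK1. Many of these genes, like those of DNA replication, are known targets of the E2F factors that drive entry into S phase.

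E2F factors recognize TTTCCCGC or TTTGGCGC, Myc with its partner Max recognizes the E-box CACGTG, and the TEAD factors that carry YAP to DNA recognize GGAATG. These letters were searched on both strands in the 250 bases before the RefSeq gene start (GRCm38.p6), a window that was found for 37 of the 45 genes. An E2F sequence was present in 6 of the 37 (16.2%), against 1.51% of all 27025 genes with a window. An E-box was present in 5 (13.5%), against 6.86% of all genes, and a TEAD sequence in 2 (5.41%), against 14.4%. The stretches below are those of the genes with an E2F sequence or an E-box whose transcript is also reported as higher or lower in a comparison, each read along the strand of its gene with the match in capitals (GCGGGAAA is TTTCCCGC on the other strand):
Fancg, E2F, chr4:43010335-43010364, minus strand: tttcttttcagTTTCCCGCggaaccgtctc
Brca2, E2F, chr5:150522442-150522471, plus strand: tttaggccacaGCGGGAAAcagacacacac
Bard1, E2F, chr1:71103163-71103192, minus strand: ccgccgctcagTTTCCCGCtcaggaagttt
Xrcc6, E2F, chr15:82016312-82016341, plus strand: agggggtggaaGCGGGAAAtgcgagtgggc
Chek2, E2F, chr5:110839820-110839849, plus strand: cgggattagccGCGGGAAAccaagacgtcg
Parp1, E-box, chr1:180568830-180568859, plus strand: acctcccaaggaCACGTGctgaagccccgc

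The other matches were an E2F sequence in Msh3, E-boxes in Xrcc5, Parp2, Tdg and Apex1, and TEAD sequences in Fancc and Fancm. The windows of Fanca, Fancb, Fanci, Brca1, Palb2 and Blm held none of these letters. Nor did those of Xrcc3, Ung, Atm, Atr, Chek1 and Mre11a. All of these genes are also reported as higher in a comparison, as are Exo1 and Rad50, for which no window was found. A link between a match and a change was not tested. A match describes the sequence and is not a measured binding site.

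The table gives 1 mean of normalized read counts per gene for each treated group together with CTRL, that is, a mean over 3 treated and 3 CTRL libraries. 2 quantities were taken from these means. First, because all means share the CTRL libraries, the ratio of a pair of means is the least fold change between the 2 treated groups, whatever the level in CTRL, and it is given for all 45 genes. A gene was counted as higher or lower when this least fold change was 1.2 or more and a 95% interval for counting error alone left out 0. These intervals do not cover the spread between libraries, and this part of the data gives no test. Second, the whole reads behind the means were recovered for weakly expressed genes, 19 of the 45 among them. These give a value per library and a comparison with CTRL by limma, with p-values adjusted by the Benjamini-Hochberg method over 2694 recovered genes. The libraries of a group are called A, B and C in order of falling size factor (relative depth). The recovered reads show the group but not the replicate number. The same letter in different groups therefore does not mark the same replicate or batch. All 45 genes had a mean of 10 or more over the 3 comparisons, and their means ran from 22.1 to 1489 normalized reads.

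Size factors of the 12 libraries, their depths relative to each other, lay between 0.831 and 1.16. Of 10 fibroblast markers, 9 had a mean of 10 or more and the summed mean was 35046. Of 15 markers of epithelium, endothelium, blood, muscle and fat, 1 reached a mean of 10, at 39.6, and the summed mean was 54.0. Among the 2694 recovered genes the median log2 fold change against CTRL was −0.12 in OHT DOX, −0.01 in OHT and −0.11 in DOX. Between treated groups it was 0.11 in OHT against DOX, −0.10 in OHT DOX against OHT and −0.02 in OHT DOX against DOX. The limma fold changes below are to be read against these values.

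MycER activation on top of YAP S127A was measured by OHT DOX against DOX. In this pair 14 of the 45 genes were higher and 0 lower, against 7.29% of 12154 genes higher and 2.87% lower. The 14 genes belonged to all subgroups but nucleotide excision, with 5 of the 7 genes of break sensing and checkpoint signaling, 3 of 12 of recombination, 2 of 10 Fanconi genes, 2 of 7 of base excision, 1 of 4 of mismatch repair and 1 of 3 of end joining. The median least log2 fold change was 0.15 over the 45 genes and 0.00 (−0.0013) over all genes. MycER and YAP S127A were also compared directly, in OHT against DOX, where 13 of the 45 genes were higher and 0 lower, against 5.68% of all genes higher and 3.35% lower, with a median of 0.17 over the 45 genes and 0.01 over all genes. These pairs share the DOX libraries. YAP S127A added to active MycER was measured by OHT DOX against OHT. In this pair Fanca, Fancb, Exo1 and Ung were higher and 0 genes were lower, against 1.83% of all genes higher and 1.05% lower, and the median was 0.00 (0.0017) over the 45 genes and 0.00 (−0.0011) over all genes. In all, 17 genes were counted in at least 1 pair and 28 in none.

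**Figure D1:**
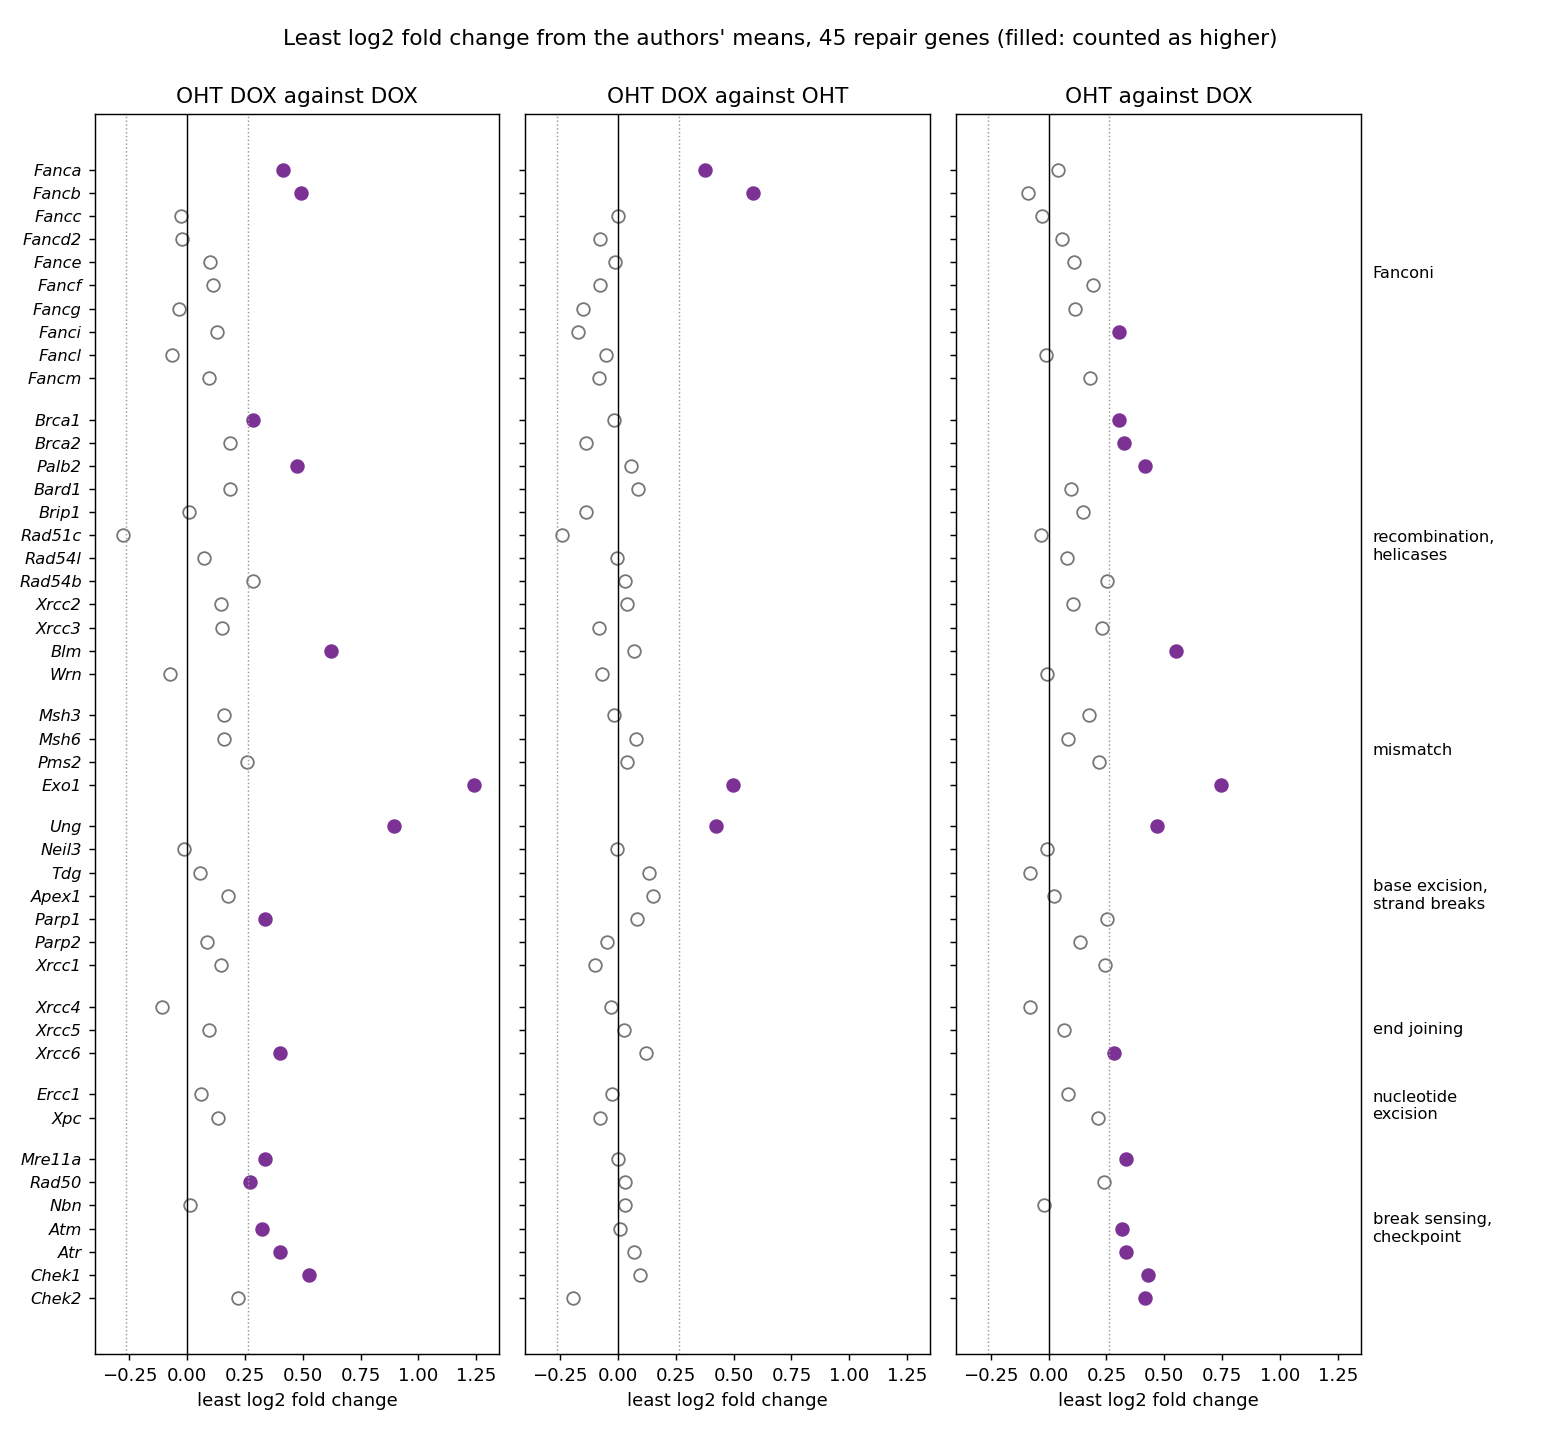
Least log2 fold change between pairs of treated groups for the 45 repair genes, ordered by subgroup. The dotted lines mark a least fold of 1.2 and filled circles are genes counted as higher; 14 are filled for OHT DOX against DOX, 4 for OHT DOX against OHT and 13 for OHT against DOX, and Exo1 lies farthest to the right in the first of these.

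Replication genes, which mark S phase, were higher in these pairs too. Of 44 such genes, 25 were higher in OHT DOX against DOX, 6 in OHT DOX against OHT and 21 in OHT against DOX, and 0 were lower in any of these pairs. Their median least log2 fold changes were 0.35, 0.08 and 0.26 in the same order. Of 69 repair genes outside the 45 with a mean of 10 or more, 9, 1 and 6 were higher in that order and 0 lower, with medians of 0.08, 0.01 and 0.07. The part that replication had in the values of the 45 genes was not tested.

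The Fanconi genes were split. Fanca, a part of the core complex that attaches ubiquitin to FANCD2 and FANCI, was recovered at 60.9, 38.9 and 44.7 normalized reads in OHT DOX libraries A to C, at 31.9, 37.4 and 28.9 in OHT, at 29.2, 33.1 and 31.8 in DOX, and at 21.1, 22.6 and 13.7 in CTRL. Each treated library lay above every CTRL library, and each OHT DOX library lay above every library treated with 1 agent. The log2 fold change against CTRL was 1.31 ± 0.24 for OHT DOX (SE, limma adjusted p = 0.000321), 0.79 ± 0.25 for OHT (adjusted p = 0.0368) and 0.72 ± 0.26 for DOX (adjusted p = 0.105). The call for OHT was lost without CTRL A, CTRL B, CTRL C, OHT A or OHT B (adjusted p from 0.0509 to 0.158). Its least fold change in the means was 1.33 in OHT DOX against DOX and 1.298 in OHT DOX against OHT. By limma, which counts the spread between libraries, these differences were 0.59 on the log2 scale (adjusted p = 0.0608, and 0.0297 without OHT DOX B) and 0.52 (adjusted p = 0.237) and did not pass.

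Fancb, another core complex subunit, encoded on the X chromosome, had 143, 89.9 and 93.6 normalized reads in OHT DOX, 61.3, 59.6 and 56.5 in OHT, 77.2, 54.8 and 64.6 in DOX, and 34.8, 45.1 and 43.1 in CTRL. The 3 OHT DOX libraries were above all others, with library A far above B and C, and both single treatments lay above CTRL without overlap. Against CTRL the log2 fold change was 1.39 ± 0.20 for OHT DOX (adjusted p = 2.06e-05), 0.54 ± 0.22 for OHT (adjusted p = 0.0881) and 0.68 ± 0.21 for DOX (adjusted p = 0.0756). The DOX value passed with size factors taken from the recovered genes, at 0.79 (adjusted p = 0.0353), and without OHT DOX A (adjusted p = 0.0273), and the OHT value passed without OHT DOX A (adjusted p = 0.0359). Fancb was the 1 recovered repair gene that passed in OHT DOX against OHT, at 0.84 ± 0.18 (adjusted p = 0.0176), where 0.817% of the recovered genes were higher and 0.854% lower. That call was lost without OHT B, OHT C or OHT DOX A (adjusted p from 0.0683 to 0.122). It was also higher in OHT DOX against DOX, at 0.71 ± 0.18 (adjusted p = 0.00864), a call lost without DOX B (adjusted p = 0.0516) or OHT DOX A (adjusted p = 0.0663).

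Fancg, also of the core complex, went the other way. It had 74.7, 87.9 and 72.3 normalized reads in OHT DOX, 99.3, 110.4 and 91.4 in OHT, 81.9, 78.6 and 90.1 in DOX, and 125, 125 and 117 in CTRL. All treated libraries lay below all CTRL libraries. The reads of Fancg were recovered in the range of means from 100 to 140, where 345 of 523 genes had exactly 1 solution. The log2 fold change was −0.64 ± 0.13 for OHT DOX (adjusted p = 0.000816), −0.28 ± 0.12 for OHT (adjusted p = 0.126) and −0.55 ± 0.13 for DOX (adjusted p = 0.0188). The DOX call was lost without CTRL A, CTRL B, DOX A or DOX B (adjusted p from 0.0592 to 0.0935), and with size factors from the recovered genes, where the value was −0.44 (adjusted p = 0.0564). The promoter stretch of Fancg shown above holds an E2F sequence 52 bases before its start.

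Fanci, which forms with FANCD2 the pair that is ubiquitinated at crosslinks, had 72.7, 50.9 and 68.1 normalized reads in OHT DOX, 76.0, 77.4 and 83.0 in OHT, 56.5, 64.1 and 41.3 in DOX, and 56.8, 54.0 and 46.3 in CTRL. The OHT libraries lay above those of all other groups, while OHT DOX overlapped with CTRL. It rose in OHT against CTRL by 0.58 ± 0.18 on the log2 scale (adjusted p = 0.0261) and was at 0.27 ± 0.18 in OHT DOX against CTRL (adjusted p = 0.280). The OHT call was lost without CTRL B, CTRL C, OHT A or OHT C (adjusted p from 0.0505 to 0.102). In OHT against DOX it was higher by 0.55 ± 0.18 (adjusted p = 0.0361), and this was lost without OHT A, OHT B, OHT C, DOX A or DOX C (adjusted p from 0.0555 to 0.220) and with size factors from the recovered genes (0.42, adjusted p = 0.134). Fancd2, its partner, was recovered at 18.0 to 22.3 normalized reads in OHT DOX, 15.6 to 26.7 in OHT, 17.9 to 26.5 in DOX and 19.6 to 26.6 in CTRL, overlapping in all groups. Fancl, the ubiquitin ligase of the core complex, had group means of 121 ± 12 in OHT DOX, 130 ± 9.7 in OHT, 132 ± 21 in DOX and 123 ± 8.8 in CTRL (SD, n = 3 each). Both had log2 fold changes against CTRL between −0.16 and 0.08. Fancc, Fance, Fancf and Fancm, for which there are means only, had least log2 fold changes from −0.08 to 0.19 in the 3 pairs.

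In homologous recombination, Blm, a helicase that dissolves joined DNA molecules after strand exchange, was higher in every comparison of a group with OHT against one without it. It was recovered at 83.5, 76.9 and 75.5 normalized reads in OHT DOX, 76.8, 64.1 and 78.2 in OHT, 41.4, 31.02 and 41.3 in DOX, and 41.2, 45.1 and 27.3 in CTRL. The 6 libraries with OHT did not overlap with the 6 without it, whereas DOX and CTRL lay together. Against CTRL the log2 fold change was 1.06 ± 0.19 for OHT DOX (adjusted p = 0.000196), 0.95 ± 0.19 for OHT (adjusted p = 0.00132) and 0.01 ± 0.21 for DOX (adjusted p = 0.982). It was 1.05 ± 0.19 in OHT DOX against DOX (adjusted p = 0.000517) and 0.93 ± 0.19 in OHT against DOX (adjusted p = 0.00155). These 4 calls held without any single library.

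Palb2, which brings BRCA2 to BRCA1 at breaks, had 95.3, 67.9 and 102 normalized reads in OHT DOX, 94.97, 94.4 and 58.9 in OHT, 35.8, 52.7 and 57.2 in DOX, and 53.1, 60.8 and 47.3 in CTRL. OHT DOX lay above CTRL, and library C of OHT fell within the range of CTRL. The log2 fold change was 0.69 ± 0.21 for OHT DOX (adjusted p = 0.0148), 0.63 ± 0.21 for OHT (adjusted p = 0.0438) and −0.18 ± 0.23 for DOX (adjusted p = 0.721) against CTRL. The OHT DOX call was lost without CTRL C, OHT DOX A or OHT DOX C (adjusted p from 0.0538 to 0.0693). The OHT call was lost without CTRL A, CTRL B, CTRL C, OHT A, OHT B or DOX C (adjusted p from 0.0501 to 0.179) and in both limma-trend fits (adjusted p = 0.0584 and 0.0536). Palb2 was higher than in DOX by 0.87 ± 0.22 in OHT DOX (adjusted p = 0.00791) and by 0.80 ± 0.22 in OHT (adjusted p = 0.0138). The first of these was lost without DOX A (adjusted p = 0.0756), and the second without DOX A, OHT A or OHT B (adjusted p from 0.0573 to 0.116).

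Bard1, the partner of BRCA1 in its ubiquitin ligase, had 61.9, 42.9 and 52.1 normalized reads in OHT DOX, 36.3, 50.7 and 54.1 in OHT, 41.4, 36.2 and 47.7 in DOX, and 29.3, 37.3 and 41.0 in CTRL. The lowest OHT DOX library lay just above the highest CTRL library. The log2 fold change in OHT DOX against CTRL was 0.55 ± 0.21, at the threshold (adjusted p = 0.0499). It was lost without any library other than OHT A, OHT B or OHT DOX B (adjusted p from 0.0509 to 0.209), in the limma-trend fit with a pseudocount of 1 (adjusted p = 0.0501), with a minimum mean of 5 (adjusted p = 0.0549) and with genes of means under 100 alone (adjusted p = 0.0533).

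Brca1 and Brca2 were measured by the means. Brca1 had a mean of 160 over OHT DOX and CTRL, 162 over OHT and CTRL and 132 over DOX and CTRL, which gives a least fold of 1.22 in OHT DOX against DOX and of 1.23 in OHT against DOX. Brca2, a tumor suppressor of this pathway, had means of 239, 263 and 210.1 in that order of groups. Its least fold was 1.25 in OHT against DOX, a difference of 106 normalized reads between these groups (counting interval 71.5 to 141), and 1.14 in OHT DOX against DOX, below the fold required.

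The other recombination genes with recovered reads did not pass against CTRL. Xrcc3 had 116, 104 and 116 normalized reads in OHT DOX, 115, 139 and 120.3 in OHT, 97.9, 81.7 and 90.1 in DOX, and 99.8, 121 and 110.4 in CTRL. It was higher in OHT than in DOX, by 0.47 ± 0.13 (limma adjusted p = 0.0188). This call was lost without OHT B, DOX B or DOX C (adjusted p from 0.0594 to 0.0889) and with size factors from the recovered genes (0.34, adjusted p = 0.102). Against CTRL the log2 fold change of Xrcc3 was 0.18 ± 0.13 in OHT (adjusted p = 0.347), with overlapping libraries. In DOX it was −0.29 ± 0.14 (adjusted p = 0.221), with all DOX libraries below CTRL. Rad51c stood at 9.83, 19.97 and 20.2 normalized reads in OHT DOX, against 32.1, 20.6 and 18.9 in CTRL, a log2 fold change of −0.56 ± 0.31 (adjusted p = 0.170). Brip1, Rad54l and Rad54b, which are helicases and translocases of this pathway, had log2 fold changes from −0.10 to 0.46 against CTRL, and Rad54b passed in OHT DOX without OHT DOX C alone (adjusted p = 0.0349). Wrn, the helicase lost in Werner syndrome, had the highest mean of the recombination genes outside the counted ones, at 622 over OHT DOX and CTRL, 652 over OHT and CTRL and 654 over DOX and CTRL, with least log2 fold changes of −0.07 in OHT DOX against DOX, −0.07 in OHT DOX against OHT and −0.01 in OHT against DOX. Xrcc2 had 0.15, 0.04 and 0.11 in the same pairs.

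Exo1, an exonuclease that removes the error-bearing strand in mismatch repair and also resects DNA ends, had the highest least fold of the 45 genes in OHT DOX against DOX. It was recovered at 152, 78.9 and 93.6 normalized reads in OHT DOX, 92.4, 61.4 and 52.9 in OHT, 26.4, 29.99 and 34.97 in DOX, and 22.9, 25.5 and 31.5 in CTRL. The libraries with OHT lay above all libraries without it, and OHT DOX overlapped with OHT through OHT A. The log2 fold change against CTRL was 1.97 ± 0.27 for OHT DOX (adjusted p = 1.36e-05), 1.36 ± 0.29 for OHT (adjusted p = 0.002) and 0.20 ± 0.32 for DOX (adjusted p = 0.781). Against DOX it was 1.78 ± 0.26 in OHT DOX and 1.17 ± 0.28 in OHT (adjusted p = 0.00495), and all 4 calls held without any single library. The least fold of Exo1 from the means was 2.36 in OHT DOX against DOX and 1.41 in OHT DOX against OHT. By limma, OHT DOX against OHT was 0.61 and did not pass (adjusted p = 0.165), and passed without OHT A (0.85, adjusted p = 0.0396) or OHT DOX B (0.81, adjusted p = 0.0462). The mismatch recognition and processing genes Msh3, Msh6 and Pms2 were not counted in any pair. Msh6, whose product recognizes single mismatches, had the highest mean of them, at 1301 over OHT DOX and CTRL, 1234 over OHT and CTRL and 1166 over DOX and CTRL, and its least fold in OHT DOX against DOX was 1.12. Pms2 was closest to the limit, at 1.195 in this pair.

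In base excision repair, Ung, the glycosylase that removes uracil from DNA, had means of 198 over OHT DOX and CTRL, 147 over OHT and CTRL and 106 over DOX and CTRL. The least fold was 1.86 in OHT DOX against DOX, 1.34 in OHT DOX against OHT and 1.38 in OHT against DOX, and the counting interval of the first difference was 154 to 210.2 normalized reads. Ung and Exo1 were the genes of the set counted in all 3 pairs. Parp1, a sensor of strand breaks with an E-box 49 bases before its start, had means of 1051, 992 and 833 in the same order, a least fold of 1.26 in OHT DOX against DOX and of 1.19 in OHT against DOX, just short of the limit. Xrcc1, the scaffold of single-strand break repair, reached 1.185 in OHT against DOX. Tdg, Apex1 and Parp2, each with an E-box, had least log2 fold changes between −0.08 and 0.18. Neil3, a glycosylase of replicating cells, was recovered at 45.9 to 52.1 normalized reads in OHT DOX, 35.4 to 57.9 in OHT, 43.4 to 52.7 in DOX and 49.5 to 61.8 in CTRL, and passed in no comparison.

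Of the end joining genes, Xrcc6, which encodes Ku70, was counted and its partner Xrcc5, which encodes Ku80, was not. Xrcc6 had means of 637 over OHT DOX and CTRL, 586 over OHT and CTRL and 482 over DOX and CTRL, and least folds of 1.32 in OHT DOX against DOX and 1.22 in OHT against DOX. Xrcc5 had 260.1, 255 and 243, with least folds of 1.07 and 1.05 in these pairs. Xrcc4, the cofactor of the ligase that seals the ends, had 103, 85.9 and 72.3 normalized reads in OHT DOX, 97.6, 94.4 and 80.6 in OHT, 98.9, 94.1 and 113 in DOX, and 109.9, 110.9 and 89.4 in CTRL. The groups overlapped and its log2 fold change in OHT DOX against CTRL was −0.25 ± 0.15 (adjusted p = 0.204). The nucleotide excision genes were not counted. Xpc, which detects helix distortions, had means of 704, 742 and 640.4, with a highest least fold of 1.16 in OHT against DOX, and Ercc1, a subunit of the incision nuclease, reached 1.06.

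Break sensing and checkpoint genes were the subgroup with the highest share of counted genes. Chek1, the kinase that acts below ATR when replication stalls, was recovered at 234, 168 and 176 normalized reads in OHT DOX, 217, 163 and 143 in OHT, 105, 122 and 94.3 in DOX, and 91.6, 96.2 and 72.5 in CTRL. Libraries with OHT lay above all those without it, and OHT DOX A and OHT A were the highest of their groups. The log2 fold change was 1.13 ± 0.17 for OHT DOX (adjusted p = 3.65e-05), 0.98 ± 0.17 for OHT (adjusted p = 0.000347) and 0.30 ± 0.18 for DOX (adjusted p = 0.362) against CTRL. It was 0.84 ± 0.16 in OHT DOX against DOX (adjusted p = 0.00122) and 0.69 ± 0.16 in OHT against DOX (adjusted p = 0.00528). None of these 4 calls was lost by leaving out a library. The reads of Chek1 were recovered in the range of means from 100 to 140, where 345 of 523 genes had exactly 1 solution. Its mean over OHT DOX and CTRL, 139.6, lay just under the limit of the search.

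Chek2, the kinase below ATM, had 61.9, 53.9 and 49.996 normalized reads in OHT DOX, 91.5, 61.4 and 57.7 in OHT, 38.6, 46.5 and 37.1 in DOX, and 51.3, 51.0 and 40.0 in CTRL. The OHT libraries lay above CTRL and OHT A far above the rest, while OHT DOX overlapped with CTRL. Chek2 was higher in OHT than in CTRL by 0.56 ± 0.19 (adjusted p = 0.0459) and higher than in DOX by 0.78 ± 0.20 (adjusted p = 0.00823). The value in OHT DOX against CTRL was 0.22 ± 0.20 (adjusted p = 0.427). Without OHT A the first difference was 0.33 (adjusted p = 0.297) and the second 0.56 (adjusted p = 0.0669). The first was also lost without CTRL A, CTRL B, CTRL C, DOX A, DOX C or OHT DOX C (adjusted p from 0.0537 to 0.167), in both limma-trend fits (adjusted p = 0.0585 and 0.055), with size factors from the recovered genes (adjusted p = 0.0544) and with a minimum mean of 5 (adjusted p = 0.0507).

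Among the kinases at the top of the pathway, Atm had means of 1599 over OHT DOX and CTRL, 1591 over OHT and CTRL and 1278 over DOX and CTRL, with least folds of 1.25 in OHT DOX against DOX and 1.24 in OHT against DOX. Atr, which responds to single-stranded DNA at stalled forks, had 1016, 969 and 769, with least folds of 1.32 and 1.26. Neither differed by the required fold between OHT DOX and OHT, where the least log2 fold changes were 0.01 for Atm and 0.07 for Atr. The subunits of the MRN complex, which binds broken ends and recruits ATM, were unequal. Mre11a, its nuclease, had means of 310.0, 309 and 246 and least folds of 1.26 in OHT DOX against DOX and 1.26 in OHT against DOX. Rad50, its tethering subunit, had 737, 721 and 611 and least folds of 1.21 and 1.18, so that it was counted in the first pair alone. Nbn, its adaptor, had 296, 289.9 and 294, with least log2 fold changes of 0.01 in OHT DOX against DOX and −0.02 in OHT against DOX.

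**Figure D2:**
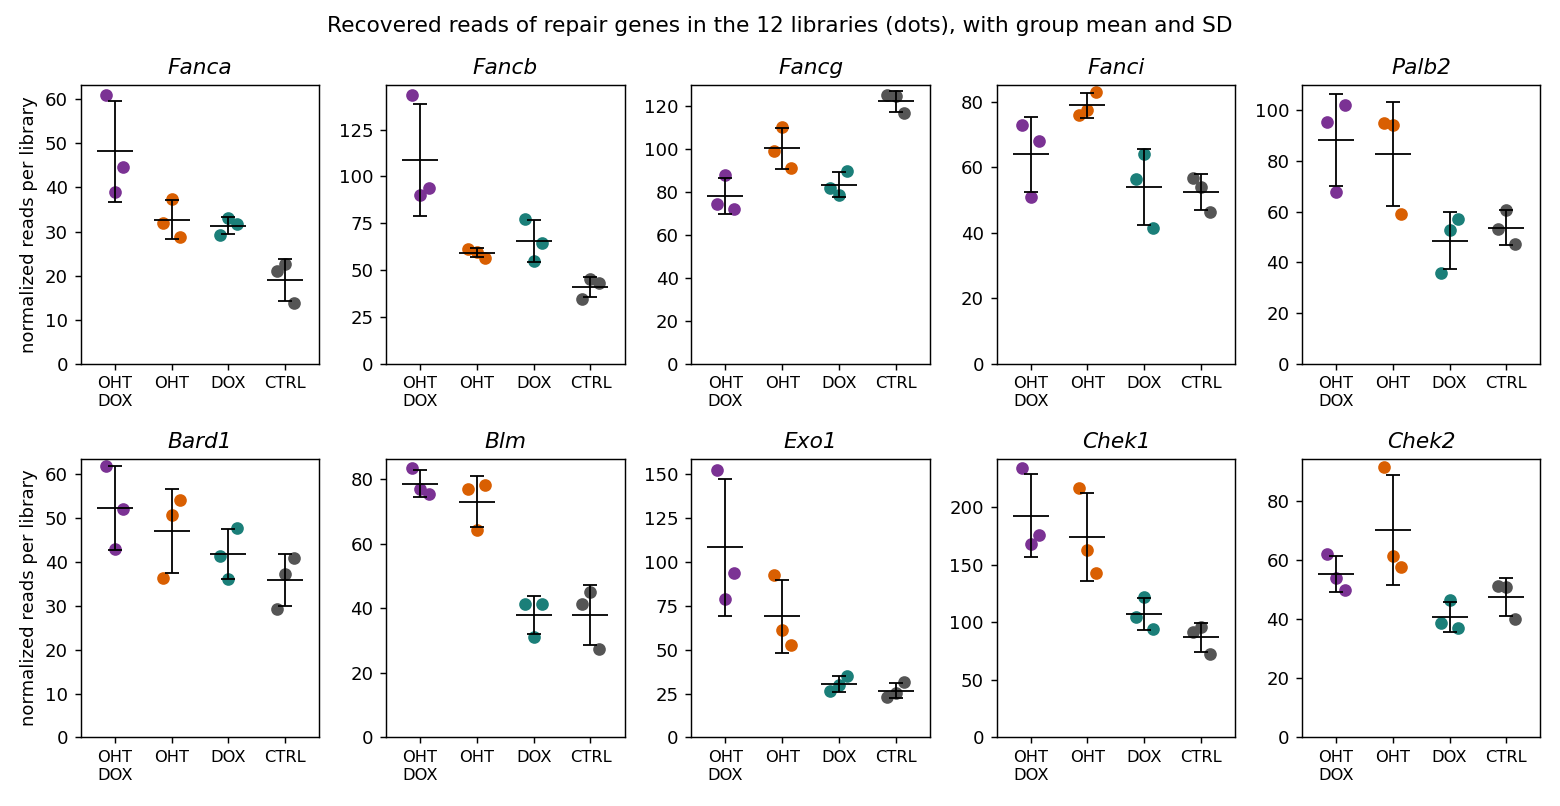
Normalized reads per library (dots) with group mean and SD (bars) for the 10 genes that passed against CTRL in any treated group. Blm, Exo1 and Chek1 are higher in all 6 libraries with OHT than in all 6 without it, Fancg is lower in all treated libraries than in CTRL, and library A is the highest OHT DOX library of each gene but Palb2 and Fancg.

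Counted over the 19 recovered genes, 7 rose and 0 fell in OHT against CTRL (Blm, Chek1, Chek2, Exo1, Fanca, Fanci and Palb2), where 9.99% of recovered genes were higher and 7.09% lower. At an unadjusted p under 0.05, 9 of the 19 differed, against 816 of the 2694 recovered genes, Fancg being the one that was lower. The count of 7 became 4 without CTRL A and 3 without CTRL B, CTRL C or OHT A. In OHT DOX against CTRL 7 rose (Bard1, Blm, Chek1, Exo1, Fanca, Fancb and Palb2) and Fancg fell, against 12.9% and 19.5% of recovered genes. In DOX against CTRL 0 rose and Fancg fell, against 1.52% and 2.64%. At an unadjusted p under 0.05, 4 of the 19 genes and 584 of the 2694 recovered genes differed in this comparison, and Fancb was higher in both limma-trend fits. The median log2 fold change of the 19 genes was 0.37 for OHT, 0.22 for OHT DOX and 0.01 for DOX against CTRL. Between treated groups, 5 were higher in OHT DOX against DOX (9.76% of recovered genes higher, 5.75% lower). In OHT against DOX 7 were higher (10.4% higher, 4.97% lower), a count of 4 without OHT A or OHT B. A higher value in these pairs need not be a rise over CTRL. In OHT DOX against OHT 1 was higher. That last count was 0 without OHT B, OHT C or OHT DOX A and 2, with Exo1, without OHT A or OHT DOX B. None of the 19 genes passed as lower in these 3 comparisons by limma. At an unadjusted p under 0.05, 9, 7 and 4 of the 19 differed in the order given. The matching counts were 747, 736 and 405 of the 2694 recovered genes. Rad51c was lower in the first comparison and Fancg in the last.

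**Figure D3:**
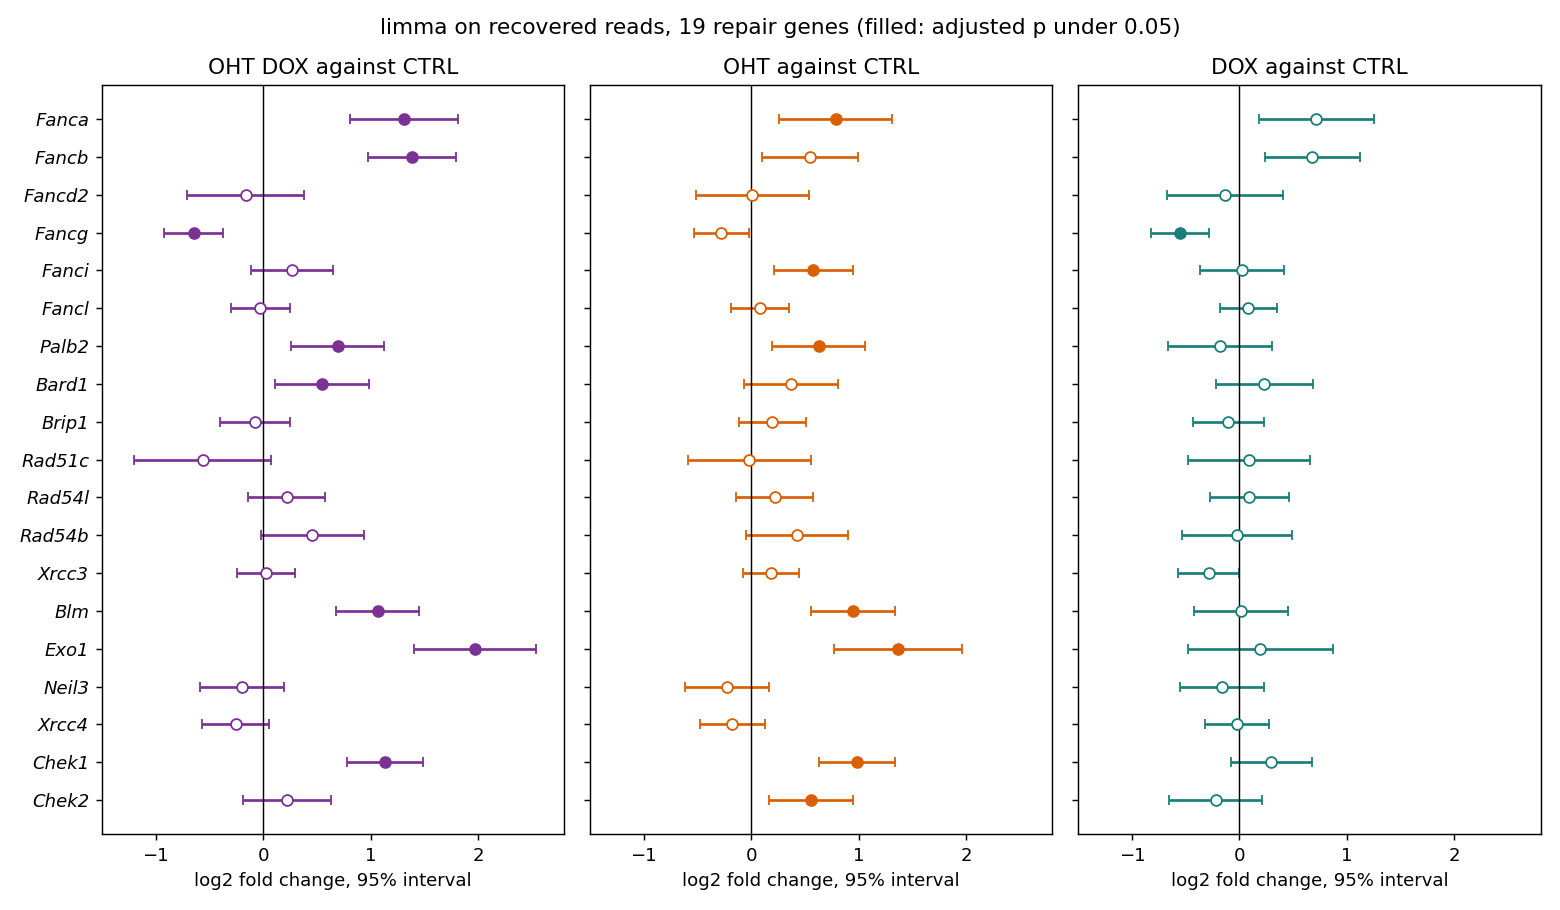
Log2 fold change against CTRL with its 95% interval from limma for the 19 genes with recovered reads, in OHT DOX, OHT and DOX. Filled points passed at an adjusted p under 0.05: 8 for OHT DOX, 7 of them above 0, 7 for OHT, all above 0, and Fancg alone, below 0, for DOX.

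Whether OHT and doxycycline together differed from the sum of their single effects on the log2 scale was tested as an interaction. On this scale a sum is the product of the single fold changes. Additivity of the normalized reads themselves was not tested. The interaction passed for 0 of the 19 genes and for 0 of 2694 recovered genes (0%). At an unadjusted p under 0.05 it passed for 0 of the 19 and 72 of all. The interaction was 0.41 on the log2 scale for Exo1 (95% interval −0.39 to 1.22), 0.17 for Fancb (−0.41 to 0.75), −0.19 for Fanca (−0.88 to 0.49) and −0.15 for Chek1 (−0.64 to 0.34). A departure from additivity on the log2 scale of about the size of the single effects is within these intervals for Fancb and Fanca. For Exo1 and Chek1 the intervals include a departure of the size of the value in DOX against CTRL (0.20 and 0.30).

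Replication genes among the recovered ones also rose. Of 16, 12 rose in OHT DOX, 10 in OHT and 0 in DOX against CTRL, and 0 fell in any of these. Their summed normalized reads were 2323, 1619 and 1709 in OHT DOX libraries A to C, 1840, 1519 and 1552 in OHT, 1029, 1110 and 1074 in DOX, and 1036, 1079 and 925 in CTRL. The sum over the 19 repair genes was 1674, 1337 and 1401 in OHT DOX, 1506, 1472 and 1323 in OHT, 1125, 1149 and 1118 in DOX, and 1142, 1210 and 1055 in CTRL. OHT DOX A had the highest sum of both lists within OHT DOX, and it was the highest OHT DOX library for 12 of the 19 genes. Within OHT, the highest sum of both lists was in OHT A. Of 14 other repair genes recovered, 5 rose and 1 fell in OHT DOX, 4 rose and 0 fell in OHT, and 0 changed in DOX against CTRL. The part of replication in the change of the repair genes was not tested.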

How the data were processed

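RNA-seq was performed by the authors on 12 libraries in 4 groups of 3. According to the submitters' processing notes, TopHat2 2.0.8, SAMtools, featureCounts 1.4.5-p1, DESeq2 and the mm9 build were used. The sources used here name no annotation. The deposited values used are, for each of 3 comparisons with CTRL, the authors' mean of read counts divided by size factors over 6 libraries. The other 9 columns, which hold the authors' log2 fold changes, adjusted p-values and calls, were not used, and 0 columns of other samples were left out. The kit keeps no strand, so overlapping genes cannot be told apart. Library totals are unknown.

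The means of OHT and of DOX were brought to the scale of OHT DOX (factors 0.979 and 0.999) through the CTRL libraries they share. A pair of means then gave the difference and the least fold change of the treated groups, with genes under a mean of 10 left out. Means carry enough digits to recover reads: genes with a single read show each library's size factor, and all combinations of 12 whole counts that rebuild the 3 means were searched for 3455 genes with means up to 140. The 3277 genes with exactly 1 solution were kept, all 2932 with means under 100 and 345 of 523 above. In this range 172 genes, Xrcc2 among them, had several solutions and 6 had none. Solutions were sought within a set spread between libraries of a group. For 2041 gene pairs past the least fold, 0 had recovered reads below it. This follows from the arithmetic, because the reads rebuild the same means, and is not an independent check. Recovered genes with a mean of 10 or more (2694) were fitted with limma-voom (limma 3.58.1, R 4.3.3) over the 4 groups, using the recovered size factors, and p-values were adjusted by Benjamini-Hochberg across these genes in each comparison. The scripts were tested on simulated data, where reads were recovered only for genes in the lower part of the range of means under 100. Recovery in the upper part of that range, where Fancb, Palb2 and Exo1 lie among others, was not simulated. Nor was recovery at means of 100 to 140, from which the reads of Chek1, Fancg, Fancl, Xrcc3 and Xrcc4 come.

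The design had foreseen no values per library. The limma test, its alternatives (limma-trend with pseudocounts of 1 and 5, other size factors, minimum means of 5 and 20, means under 100, leaving out each library), the limit of 140, the acceptance of every single solution from 100 to 140 and the 250-base window were chosen after seeing the data. The members and lists were chosen with earlier results of these data known. Full values are given for genes counted in any pair of treated groups. The design also foresaw them for the gene of highest mean among those not counted in each subgroup. For Fance and Tdg, which are such genes, only a range is given. Genes that passed limma alone, and others named, were added after their values were seen.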

Additional observations from a re-analysis of the deposited data

How the results depend on the processing

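For the counts from the means, a least fold of 1.3 in place of 1.2 left 9 genes higher in OHT DOX against DOX, in place of 14, and 6 in OHT against DOX, in place of 13. A least fold of 1.1 gave 22 in OHT against DOX and 1 lower gene in OHT DOX against OHT, in place of 0, and a minimum mean of 50 left 2 higher genes in OHT DOX against OHT, in place of 4. The other alternatives for these counts (means as deposited, scaled by the median gene, or with no filter) stayed within 1.5 times. The median in OHT DOX against OHT was −0.03 with the means as deposited and 0.00 otherwise. For limma, 29 calls of single genes were refitted under 12 fits without 1 library and 6 other settings: 447 of 515 fits kept the call, 68 lost it and 0 reversed it. In every setting that included their gene, 15 of the calls held. Calls of Chek1, Fancg and Xrcc3 could not be refitted with means under 100 alone, because these genes have a mean over 100. Recovered genes higher in DOX against CTRL numbered 1 (Fancb), in place of 0, with size factors from the recovered genes and in both limma-trend fits, and lower genes 0, in place of 1, with those size factors and with means under 100 alone, a set without Fancg. That set also gave 0 lower genes in OHT DOX against CTRL. Those size factors moved the median of all recovered genes by 0.12 (DOX) and 0.11 (OHT DOX) against CTRL. They moved it by −0.13 in OHT against DOX and by 0.12 in OHT DOX against OHT. Leaving out 1 library gave 3 to 8 genes higher in OHT against CTRL, 0 to 1 higher and 0 to 1 lower in DOX against CTRL, 5 to 7 higher in OHT DOX against CTRL, 4 to 6 in OHT DOX against DOX, 0 to 2 in OHT DOX against OHT and 4 to 7 in OHT against DOX. With 2 libraries left in a group, its spread is assumed to be that of the fit. No paired analysis was possible because the recovered libraries carry no replicate number. Genes with means over 140 have no value per library here, nor does Xrcc2, which had 2 solutions, so 19 of the 45 genes have a comparison with CTRL.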
